A study of Mus musculus with 7 samples.

Results

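A set of 10 genes that build the meiotic chromosome axis, join homologous chromosomes or process recombination intermediates was followed in single mouse oocytes. They are Hormad1, Hormad2, Sycp1, Sycp2, Sycp3, Syce1, Syce2, Trip13, Msh4 and Dmc1, 10 of the 37620 genes in the deposited table, and all 10 have a row in it. The genes were matched by symbol, but the set is built around Hormad1, which was chosen by its FPKM difference between the genotypes in these same oocytes. The difference in Hormad1 is therefore a description here, and nothing is supported with it. The set carries no limit on level, so genes near 0 are included.

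Each library is 1 mature oocyte at the metaphase II (MII) arrest. By their genotype labels, 3 oocytes had floxed Hira alleles with no Cre named (Hiraf/f, called WT1, WT2 and WT4) and 4 had the same floxed alleles with Cre driven by the Zp3 promoter (Hiraf/f, Zp3-Cre, called KO1 to KO4). Hira encodes a chaperone of the histone variant H3.3, and the Zp3 promoter is known to be active in growing oocytes, after the chromosome axes were assembled. Both groups thus carry the floxed alleles. The titles of all 7 samples, controls included, bear the tag Zp3-Cre, and that it names the mouse line rather than the genotype of the controls is taken from the genotype labels. Strain, age and animal are not given. The series' design text counts 4 oocytes per genotype, and 1 control oocyte of these is not analysed here. Because no animal is named, a genotype counts as 1 sample. No test of genotype is given, and "higher" and "lower" describe these 7 libraries. Errors are the standard deviation (SD) between single oocytes.

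As background, homologous chromosomes pair in the fetal ovary, during prophase of the first meiotic division. Cohesins and the axis proteins SYCP2 and SYCP3 fold each chromosome into loops along an axis, HORMAD1 and HORMAD2 bind unsynapsed axes, and SYCP1 with central element proteins such as SYCE1 and SYCE2 zips the paired axes together. The ATPase TRIP13 strips the HORMADs from synapsed axes. DMC1 carries out strand exchange at programmed DNA breaks, and MSH4, with its partner MSH5, stabilises the intermediates that become crossovers. In an MII oocyte these steps are over, and the values below are transcripts present in the mature egg.

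The promoters of 3 genes are shown to set the 2 members that were furthest below WT, Hormad1 and Sycp1, beside Hormad2, the paralog of Hormad1. Each run is the 250 bases before the start of the gene, 5′ to 3′ on the gene's strand, from RefSeq on build GRCm38.p6, which is later than the authors' mm9. Capitals mark CpG dinucleotides. Hormad1 lies at chr3:95559427-95559676 on the plus strand, Sycp1 at chr3:102936101-102936350 on the minus strand and Hormad2 at chr11:4441083-4441332 on the minus strand.
Hormad1: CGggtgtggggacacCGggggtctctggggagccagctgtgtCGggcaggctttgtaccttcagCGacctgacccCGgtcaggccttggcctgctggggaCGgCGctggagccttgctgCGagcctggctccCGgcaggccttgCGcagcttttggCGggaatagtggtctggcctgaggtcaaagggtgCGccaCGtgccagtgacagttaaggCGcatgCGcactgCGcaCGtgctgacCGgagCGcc
Sycp1: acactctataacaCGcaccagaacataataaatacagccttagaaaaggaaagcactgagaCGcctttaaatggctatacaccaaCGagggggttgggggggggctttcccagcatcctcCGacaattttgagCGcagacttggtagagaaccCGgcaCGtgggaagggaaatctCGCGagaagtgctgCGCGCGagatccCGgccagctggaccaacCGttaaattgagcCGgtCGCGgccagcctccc
Hormad2: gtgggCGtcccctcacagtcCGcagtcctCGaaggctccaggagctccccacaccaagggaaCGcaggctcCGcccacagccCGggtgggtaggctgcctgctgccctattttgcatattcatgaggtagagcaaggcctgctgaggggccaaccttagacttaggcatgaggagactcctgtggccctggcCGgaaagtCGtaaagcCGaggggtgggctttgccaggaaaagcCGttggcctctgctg
The Hormad1 window held 19 CpGs, the Sycp1 window 17 and the Hormad2 window 10, where the median of 32851 promoter windows was 6. All 10 genes matched a promoter, and their CpG counts ran from 4 in Msh4 to 27 in Trip13. The E-box CACGTG, which reads the same on both strands, occurred 2 times in Hormad1, 2 times in Sycp3 and 1 time in Sycp1, and was not found in the windows of the other 7 members. It was present in 6.02% of all windows. The letters TCCCGC, searched on both strands (GCGGGA on the other), occurred in Hormad1, Sycp3, Syce2 and Dmc1 and in 16.9% of all windows. No match of 1 motif overlapped a match of the other, and a match is only a match of letters.

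The 10 genes fell into an abundant and a scarce class in control oocytes. FPKM, which scales the reads of a gene to its length and to the library, allows levels to be compared between genes. In WT oocytes Sycp3 had the highest mean at 66.8 ± 24.4 FPKM (SD, n = 3), then Sycp2 at 43.0 ± 14.2, Syce2 at 29.9 ± 6.25, Sycp1 at 28.3 ± 2.94, Msh4 at 26.0 ± 1.58 and Hormad1 at 21.8 ± 0.330. Below these came Dmc1 at 1.48 ± 0.501, Hormad2 at 0.729 ± 0.131, Trip13 at 0.465 ± 0.558 and Syce1 at 0.219 ± 0.248. Each of the first 5 overlapped the next in that order except Msh4, which did not overlap Hormad1, and Hormad1 did not overlap Dmc1. Dmc1 did not overlap Hormad2, and Hormad2, Trip13 and Syce1 each overlapped the next. In KO oocytes Sycp3 and Sycp2 again came first and overlapped, Syce2 and Msh4 followed and overlapped, and Sycp1 stood alone below Msh4. The last 5 places were held by Hormad2, Syce1, Trip13, Dmc1 and Hormad1, each of which overlapped the next.

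**Figure D1:**
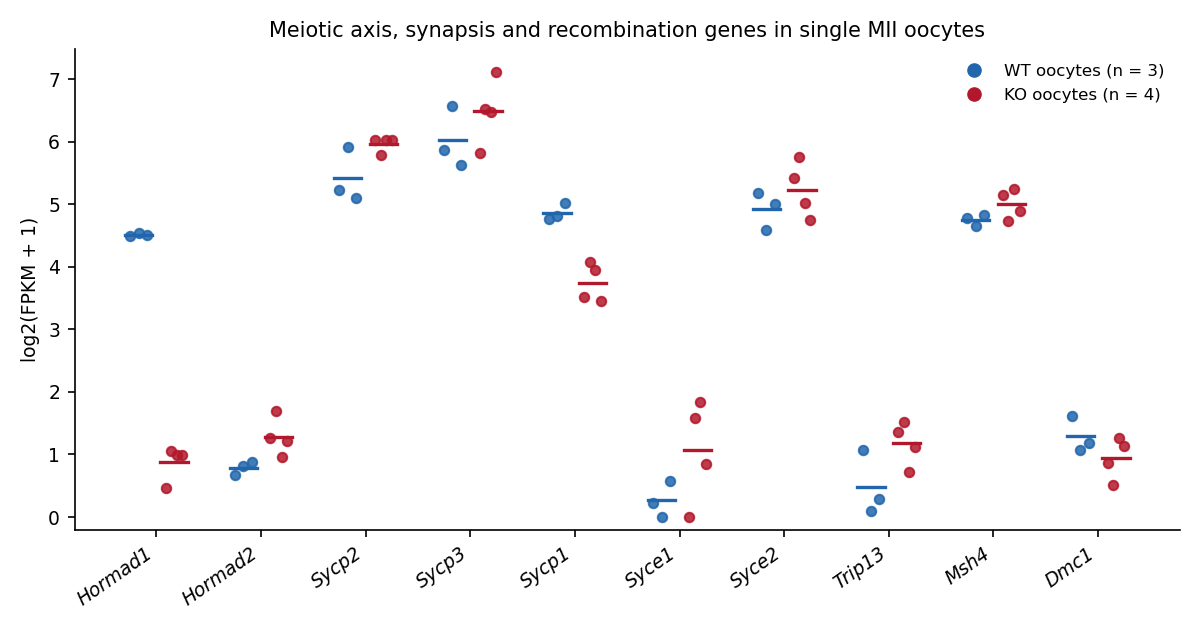
Level of the 10 genes in each oocyte, as log2(FPKM + 1), with 3 WT oocytes in blue and 4 KO oocytes in red. Points are single oocytes and lines are group means. Hormad1 lies with the abundant genes in WT and with the scarce ones in KO, Sycp1 lies lower in KO without overlap, and most other genes overlap.

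Hormad1, the HORMA-domain protein that marks unsynapsed axes, was the gene that stood apart. The 3 WT oocytes were at 21.6 (WT1), 22.2 (WT2) and 21.7 FPKM (WT4), and the KO oocytes, in order of their number, at 0.377, 1.08, 0.986 and 0.978. Every KO oocyte was below every WT oocyte, and the KO mean of 0.855 ± 0.322 FPKM (SD, n = 4) was 3.91% of the WT mean. KO1 was the lowest at 1.72% of the WT mean, and KO2, KO3 and KO4 were at 4.94%, 4.51% and 4.48%. Hormad1 held place 6 of 10 in WT and place 10 in KO.

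The Hormad1 values can also be stated as read numbers, which are derived from the same FPKM and are no separate evidence. Low FPKM values are whole multiples of the worth of 1 read, so reads could be worked back from the table. Hormad1 had 1029, 1247 and 922 reads in the WT oocytes and 17, 60, 72 and 59 in the KO oocytes. Summed, these are 3198 WT reads (exact 95% Poisson interval 3088 to 3311) against 208 KO reads (181 to 238). Per unit of sequencing, WT oocytes had 24.6 times the Hormad1 reads (exact 95% interval 21.4 to 28.5). These intervals cover counting error only, since reads of amplified cDNA are not independent molecules. KO1, with the fewest Hormad1 reads, also had the fewest reads in genes among KO oocytes, 15887904, but its FPKM was the lowest as well.

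On the log2(FPKM + 1) scale the difference of Hormad1, KO minus WT, was -3.64. Of the 8033 genes that reached 1 FPKM in 3 or more libraries (the filter used below), 2 had a lower value. On this scale 3, or 0.0373%, were over 10-fold lower, Hormad1 among them. Fold limits here and below are on the log2(FPKM + 1) scale, which understates the ratio of low genes. Leaving out any 1 oocyte gave -3.70 to -3.50, and both other scalings of the libraries gave -3.80. The pseudocount sets the size, with -4.61 at 0.1 and -2.20 at 5.

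Reads of Hormad1 can be shared with copies. Of the 1773 windows of 50 bases in its annotated transcripts, 22.9% recur in another gene. The processed pseudogene Gm15529 on chromosome 6 held 380 of them, which is 21.4%. In the table Gm15529 was at 0.0494 FPKM in WT1, 0.0419 in WT2 and 0 in the other 5 oocytes. The second copy, Gm7167 on chromosome 15, shares 2.14% and was not analysed here. No KO oocyte had a Gm15529 read. How reads that fit both places were counted is not given in the sources used here. No exon of another gene overlaps those of Hormad1 in the annotation.

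The neighbours of Hormad1 on chromosome 3 that had signal differed less between genotypes than Hormad1 did. Golph3l, a Golgi protein gene that begins 1262 bases beyond the end of Hormad1 on GRCm38, was at 5.50, 9.05 and 6.52 FPKM in WT1, WT2 and WT4 and at 5.39, 4.54, 6.10 and 5.16 in KO1 to KO4. Ensa, an endosulfine that restrains the phosphatase PP2A, lies next and was at 4.73, 4.37 and 6.56 against 3.11, 4.99, 4.86 and 4.65. Both overlapped between genotypes as deposited, with differences of -0.33 and -0.20. These were -0.54 and -0.40 with median-ratio scaling and -0.56 and -0.44 with quantile normalization, where every KO oocyte was below every WT oocyte for Ensa. On the other side the cathepsin genes Ctsk and Ctss were listed at 0 in all WT oocytes. Ctsk was also listed at 0 in all KO oocytes, and Ctss had 0.0701 FPKM in KO2 alone.

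The 5 genes whose profile over the 7 oocytes was closest to that of Hormad1 were Hist1h2al, Rps3a3, Sfr1, Fbxw26 and Prg4, with Pearson's r of 0.992, 0.991, 0.989, 0.988 and 0.987 on the log2(FPKM + 1) scale. All 5 were lower in every KO than in every WT oocyte, and the 7 points share their libraries and the split by genotype. A choice by r with Hormad1, which itself splits by genotype, favours such genes, so their lack of overlap is no separate result. Hist1h2al, a histone H2A copy, was at 13.7 ± 2.86 FPKM in WT (n = 3) and had 1 read in all KO oocytes together. Rps3a3, a ribosomal protein gene copy, was at 4.49 ± 0.841 in WT and had 2 KO reads. Sfr1, which encodes a strand exchange factor, was at 287, 272 and 262 FPKM in WT1, WT2 and WT4 and 153, 149, 158 and 154 in KO1 to KO4. Fbxw26, an F-box gene, was at 109 ± 5.46 and 64.1 ± 5.55, and Prg4, the joint lubricant proteoglycan, at 3.46 ± 0.734 and 0.235 ± 0.111. The KO mean was 56.1% of the WT mean in Sfr1 and 6.78% in Prg4. Among the other 9 members, Sycp1 had the highest r with Hormad1, 0.95, then Dmc1 with 0.55, and the 6 others above the filter had r from -0.75 to -0.40.

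**Figure D2:**
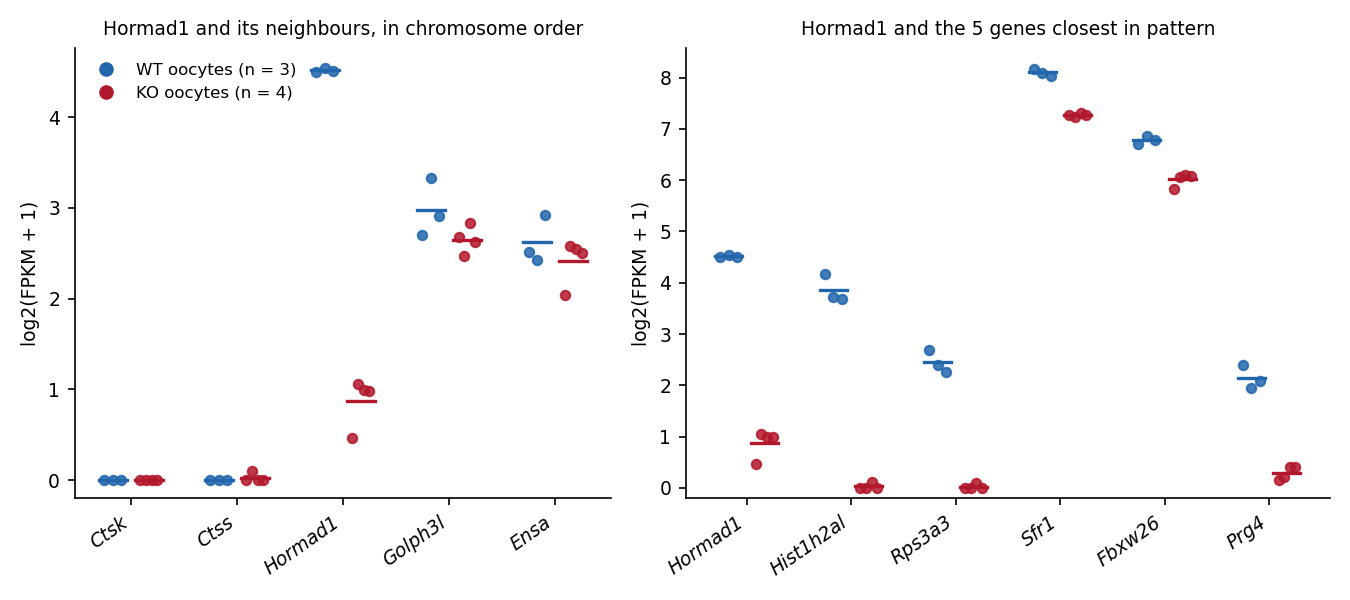
Levels as log2(FPKM + 1) in 3 WT (blue) and 4 KO (red) oocytes, with lines at group means. The left side shows Hormad1 between its neighbours in chromosome order, where Golph3l and Ensa overlap between genotypes as deposited. The right side shows the 5 genes chosen as closest in profile. All 5 are lower in KO without overlap, which that choice favours.

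Hormad2, the paralog of Hormad1, was scarce in both genotypes. It was at 0.586, 0.758 and 0.844 FPKM in WT1, WT2 and WT4 and at 1.41, 2.22, 0.937 and 1.33 in KO1 to KO4. The KO oocytes lay above the WT oocytes without overlap as deposited, but the groups overlapped under both other scalings. Its 160 WT reads and 506 KO reads gave a WT rate of 0.506 of the KO rate (exact 95% interval 0.421 to 0.606). This interval covers counting error only, not the spread between oocytes. The difference was 0.50 on the log2(FPKM + 1) scale, inside 2-fold, although the KO mean was 202% of the WT mean. With a pseudocount of 0.1 the difference was 0.88. The sign was opposite to that of Hormad1. As deposited, 18.9% of all genes above the filter likewise had every KO oocyte above every WT oocyte. None of the 50-base windows of Hormad2 recurs in another gene.

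The filamentous axis proteins did not follow Hormad1. Sycp2 was at 36.4, 59.3 and 33.4 FPKM in WT1, WT2 and WT4 and at 64.3, 54.2, 63.9 and 64.0 in KO1 to KO4, so KO2 was below WT2. Sycp3 was at 57.3, 94.5 and 48.6 in WT and 55.6, 91.1, 87.9 and 138 in KO, with broad overlap and its highest value in KO4. Their differences were 0.55 and 0.46, where the median of all 8033 genes was 0.18, and were 0.31 and 0.22 with median-ratio scaling and 0.51 and 0.49 with quantile normalization. Of the exonic bases of Sycp3, 52.2% lie within exons of Chpt1 on the opposite strand. The strand of the counting is not given, so reads of both genes cannot be told apart there. Chpt1 was at or below 0.531 FPKM in every oocyte.

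Sycp1, the transverse filament that bridges the paired axes, was the other member over 2-fold apart. It was at 26.1, 27.2 and 31.6 FPKM in WT1, WT2 and WT4 and at 10.5, 15.9, 14.4 and 9.95 in KO1 to KO4. Every KO oocyte was below every WT oocyte, as they also were under both other scalings. The KO mean of 12.7 ± 2.91 FPKM (n = 4) was 44.8% of the WT mean of 28.3 ± 2.94 (n = 3). Its 6105 WT and 4463 KO reads put the WT rate at 2.19 times the KO rate (exact 95% interval 2.11 to 2.28). Here too the interval covers counting error only, not the spread between oocytes. The difference of -1.12 lay between -1.23 and -1.02 when any 1 oocyte was left out, and was -0.93 with a pseudocount of 5, inside 2-fold. Of its 50-base windows, 5.47% recur in 66 other genes, so some of its reads may be shared.

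The central element genes of the set overlapped between genotypes. Syce2 was at 35.4, 23.1 and 31.1 FPKM in WT1, WT2 and WT4 and at 41.8, 52.8, 31.6 and 25.9 in KO1 to KO4, with overlap and a difference of 0.31. Syce1 was below the filter. It was at 0.168, 0 and 0.489 FPKM in WT and at 0, 1.98, 2.58 and 0.794 in KO, from 18 reads in WT and 217 in KO. KO1 held no Syce1 read, so the groups overlapped, and KO2 and KO3 held the most, 69 and 118.

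Trip13, the ATPase that removes HORMADs, was below 2 FPKM in every oocyte. Its values were 1.10, 0.0735 and 0.218 in WT1, WT2 and WT4 and 1.55, 1.87, 0.649 and 1.18 in KO1 to KO4. WT1 alone held 51 of the 64 WT reads, and it lay above KO3. The difference of 0.69 was 0.50 to 0.99 when 1 oocyte was left out, and 1.71 with a pseudocount of 0.1. The KO mean was 282% of the WT mean.

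The recombination genes differed little. Msh4 was at 26.5, 24.3 and 27.3 FPKM in WT1, WT2 and WT4 and at 34.7, 25.7, 37.1 and 28.8 in KO1 to KO4. The groups overlapped, and the difference of 0.26 was 0.02 with median-ratio scaling. Dmc1 was at 2.05, 1.11 and 1.28 in WT and 0.815, 0.432, 1.40 and 1.20 in KO, with a difference of -0.35 and overlap as deposited. With quantile normalization alone its KO oocytes were all below its WT oocytes.

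Of the 9 members above the filter, 2 were over 2-fold lower in KO oocytes, Hormad1 and Sycp1, and none was over 2-fold higher. Over all 8033 genes 2.34% were over 2-fold lower and 7.95% over 2-fold higher, which is 10.3% apart in either direction. With a pseudocount of 5 only Hormad1 remained of the 2. With a pseudocount of 0.1 there were 3 genes over 2-fold apart, and Trip13 was then higher in KO, by 1.71. The median difference of the 9 was 0.31, beside 0.18 for all genes, and with median-ratio scaling it was 0.07, beside -0.01. Groups did not overlap for Hormad2 (higher) and for Hormad1 and Sycp1 (lower). Of all genes, 18.9% had every KO oocyte above and 8.94% every KO oocyte below every WT oocyte. Hormad2 reached 1 FPKM in KO1, KO2 and KO4 alone, so it passed the filter only through the group where it is higher. Hormad1 was in the rule that built the set, so these counts are read only as a description.

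**Figure D3:**
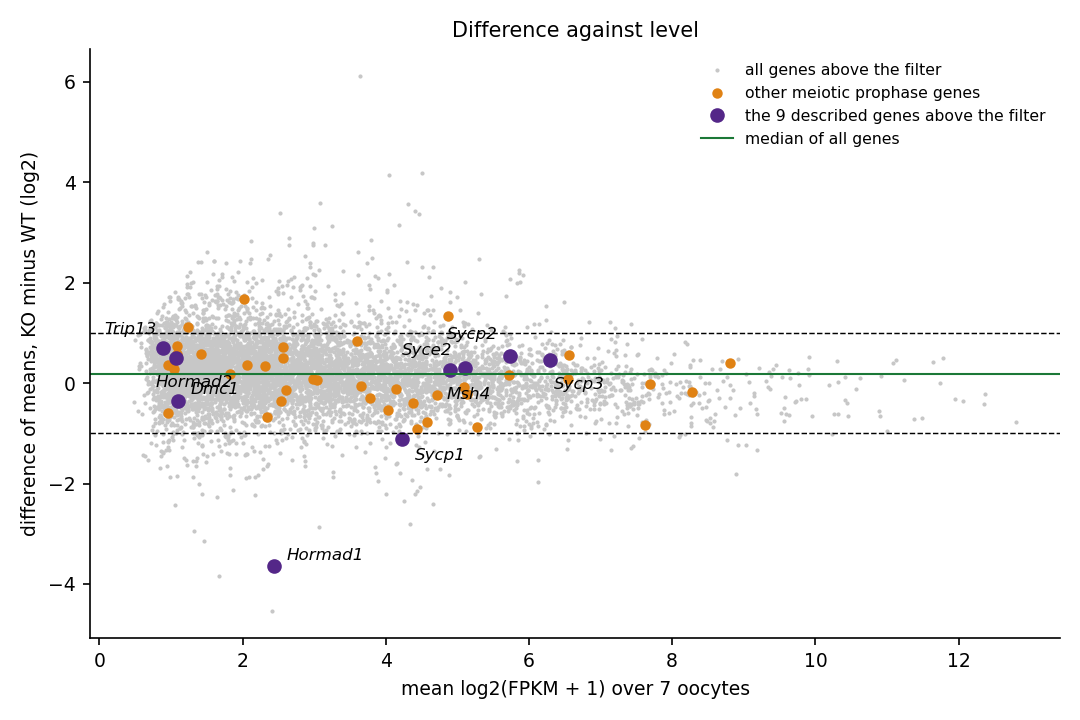
The difference between group means of log2(FPKM + 1) is plotted, KO minus WT, against the mean log2(FPKM + 1) over 7 oocytes for 8033 genes in grey, the 9 described genes above the filter in purple and other meiotic prophase genes in orange. Dashed lines mark 2-fold and the green line the median of all genes, 0.18. Hormad1 lies at -3.64 and Sycp1 at -1.12, and the other 7 lie within 2-fold.

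A wider set of 79 meiotic prophase genes, which includes the 10, put these values in context. The table held 74 of them, and 47 were above the filter. Of the 47, the KO level was over 2-fold higher for 3 and over 2-fold lower for 2, and the median difference was 0.09, beside 0.18 for all genes. Over all genes 7.95% were over 2-fold higher and 2.34% lower, and the 2 lower genes are Hormad1 and Sycp1. With median-ratio scaling the counts were 2 and 6, beside 408 and 339 of all 8033 genes, and the median was -0.12, beside -0.01 for all genes. The count of lower genes was 4 without WT1 and 4 without WT4. The values just past the 2-fold limit were -1.12 in Sycp1 and 1.11 in Prdm9, and those just short of it -0.91 in Mei4 and 0.85 in Shoc1.

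The 3 genes over 2-fold higher act at different steps. Mad2l1bp encodes p31comet, the adapter through which TRIP13 engages HORMA-domain proteins. It was at 22.6, 11.7 and 15.9 FPKM in WT1, WT2 and WT4 and at 23.0, 54.4, 47.8 and 53.0 in KO1 to KO4. KO1 was hardly above WT1, and the groups overlapped under both other scalings. Ccnb1ip1 encodes HEI10, which selects crossover sites. It was at 0, 2.51 and 1.57 against 3.16, 7.88, 3.58 and 10.5, and also overlapped under both other scalings. Prdm9, the methyltransferase that places recombination hotspots, was at 0.429, 0.929 and 0.272 against 2.56, 2.44, 1.98 and 2.20. It was below 1 FPKM in every WT oocyte and thus passed the filter through the KO oocytes alone. Its KO oocytes stayed above its WT oocytes under each scaling, but its difference of 1.11 was 0.97 with median-ratio scaling, 0.89 with quantile normalization and 0.99 without WT4. Part of the exons of Ccnb1ip1, 12.4% of its bases, lies in exons of Rpph1.

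By role, the medians of the wider lists ran from -0.13 to 0.43. Among 7 axis and cohesin genes above the filter, 1 was over 2-fold lower, Hormad1, beside 2.34% of all genes. Their median was 0.29. As deposited, 2 of the 7 (Hormad1 and Smc1b) were lower and 1 (Hormad2) was higher in every KO than in every WT oocyte. Of all genes above the filter, 8.94% were lower and 18.9% higher in this way, and Hormad1 is the gene the set was built on. Smc1b differed by -0.39 and stayed without overlap under each scaling. Sycp2l differed by -0.78 with overlap, and by -1.02 with median-ratio scaling. Its KO oocytes were all below its WT oocytes under both other scalings. The 4 central region genes had a median of 0.43, with Sycp1 below and Tex12, a central element protein, at 75.9 ± 15.3 FPKM in WT and 111 ± 11.4 in KO. Of 7 genes of HORMAD remodelling and surveillance, 1 was over 2-fold higher, beside 7.95% of all genes. The most abundant of them, Skp1, a ubiquitin ligase subunit, and Mad2l1, the spindle checkpoint HORMA protein, were at 333 ± 9.13 against 296 ± 36.2 and at 209 ± 22.4 against 205 ± 13.9.

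The medians of the 5 break formation and the 12 strand exchange genes above the filter were 0.07 and 0.00. Mei4, needed for break formation, was at 31.9 ± 12.9 FPKM in WT and 16.2 ± 5.45 in KO with overlap, and its difference of -0.91 was -1.14 with median-ratio scaling. The histone reader Zcwpw1 was at 7.12 ± 1.89 and 7.48 ± 1.68. None of 12 strand exchange genes was over 2-fold apart as deposited, beside 10.3% of all genes. Sfr1 differed by -0.83, which was -1.07 with median-ratio scaling, while its partner Swi5 was at 91.3 ± 22.7 and 94.9 ± 10.5. Among 7 crossover genes 1 was over 2-fold higher, beside 7.95% of all genes. Exo1, a nuclease, was at 28.1 ± 5.61 and 23.9 ± 5.72. The telomere genes Terf1 and Terb1 differed by -0.22 and -0.05, and the meiotic entry genes Dazl and Ythdc2 by 0.40 and 0.09.

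Several prophase genes were listed at 0 in all 7 oocytes, namely Rec8, Spo11, Prr19 and Stra8. A 0 in the table need not mean that a transcript was absent. Msh5, the partner of Msh4, was at or below 0.269 FPKM in every oocyte, against at least 24.3 for Msh4.

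**Figure D4:**
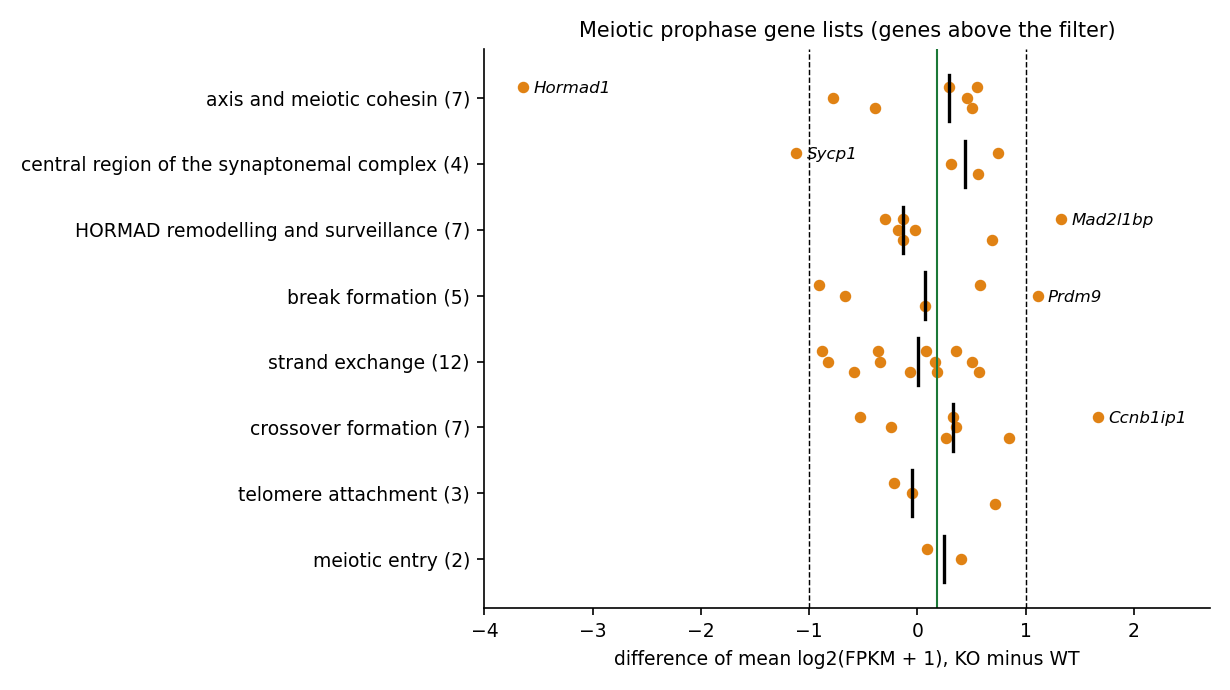
The difference between group means of log2(FPKM + 1) is plotted, KO minus WT, for prophase genes above the filter by role, with the number of genes in brackets. Each point is a gene, black bars are list medians, dashed lines mark 2-fold and the green line the median of all genes. Hormad1 and Sycp1 are the 2 genes below the lower line, and 3 genes lie above the upper line.

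Features of the libraries that touch these values were as follows. Reads in genes ran from 15340782 to 20077129 in WT and from 15887904 to 25940519 in KO oocytes. Genes at 1 FPKM or more numbered 6959 to 7286 in WT and 7664 to 8222 in KO, and the part of this in the higher values of the scarce members was not tested. Hira itself was at 0.312, 0.347 and 0.291 FPKM in WT1, WT2 and WT4 and 0.0941, 0.0955, 0.0242 and 0.0997 in KO1 to KO4. It was thus below the filter, and its KO values rest on 12, 15, 5 and 17 reads in KO1 to KO4. KO3 was lowest for Hira and KO1 for Hormad1, but an order from so few Hira reads carries little weight. The Hira values cover the whole gene, and deleted and remaining exons are not separated. All 12 oocyte markers were above the filter in these oocytes, with a median difference of -0.30. As deposited, 4 of them (Gdf9, Bmp15, Dppa3 and Oosp1) were lower in every KO than in every WT oocyte, as were 8.94% of all genes above the filter. With median-ratio scaling these 4 stayed without overlap, Zp2 was also lower without overlap, and the marker median was -0.54. With quantile normalization all of these overlapped between genotypes, and the marker median was -0.26. Zp2 was also over 2-fold lower as deposited, at -1.01 with overlap. Of all genes above the filter, 2.34% were over 2-fold lower. The summed level of the 12 markers was 15570 to 16720 FPKM in WT and 9328 to 11690 in KO. Most of it came from Dppa3, with a mean of 9676 in WT and 5718 in KO. Of 20 cumulus and granulosa cell markers, 10 were listed at 0 in every library (among them Amh, Foxl2 and Lhcgr), and 18 stayed under 1 FPKM. Their summed level was 3.37 to 4.18 in WT and 7.01 to 9.80 in KO, where Kitl and Fshr were the 2 genes that passed 1 FPKM. Fshr was listed at 0 in WT oocytes and KO1 and was at 2.99, 4.34 and 4.51 FPKM in KO2, KO3 and KO4, and the part of these markers in the results was not tested.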

How the data were processed

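Single MII oocytes were profiled by RNA-seq after cDNA amplification with an ultra-low-input kit, per the labels' protocols, with 3 WT and 4 KO libraries. The authors deposited FPKM, not logged, with 1 value per Ensembl gene and oocyte. The build mm9 and the tools HTSeq, edgeR 3.1.10, TopHat (also TopHat2 2.0.2) and Bowtie (0.12.8, and Bowtie2) appear, without roles, per the submitters' processing notes. Spike-ins were added but are not used here. Symbols came from a GRCm38 annotation (87.4% of identifiers matched), and newer symbols were also looked up by older ones.

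Group means of log2(FPKM + 1) were subtracted, KO minus WT, for genes that reached FPKM 1 in 3 or more libraries, computed with Python 3.11.15, pandas 2.3.3 and scipy 1.17.1. Reads were recovered as the smallest whole numbers within a tolerance of 0.01, and a gene whose true numbers share a divisor would be given too few. On simulated FPKM 98.7% of 2958 genes came back exactly. Because no animals are named, genotypes were not tested. Other pseudocounts, scalings and filters, and leaving out each oocyte, were tried. The members and lists were chosen with earlier results of these data known. Named are all 10 genes, prophase genes over 2-fold apart, the 2 most abundant of each list, the neighbours and copies of Hormad1 and the 5 genes closest to it by Pearson's r. Smaller points on Msh5, Shoc1, Chpt1, Rec8, Spo11, Prr19, Stra8, Sycp2l and Smc1b were chosen after their values were seen. So were Gm7167, Gdf9, Bmp15, Dppa3, Oosp1, Zp2, Kitl, Fshr, Amh, Foxl2 and Lhcgr among the copies and markers. No protein sequences were used here.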

Additional observations from a re-analysis of the deposited data

Results flagged for a closer look

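Of 31 named genes, 7 had 1 KO oocyte set apart from the other 3, with a gap to the nearest oocyte, as a share of the range on the log2(FPKM + 1) scale, above Dixon's 95% critical value. For normally distributed values, chance alone gives about 1 group in 20. The share of all genes with such a gap was not computed, so the count of 7 has no background here. KO1 was the lowest oocyte for 4 of the 7: Hormad1 (gap 0.879 of the range), Mad2l1bp (0.848), Fbxw26 (0.868) and Ensa (0.844). Fbxw26 was chosen by its r with Hormad1 over these same oocytes, so its flag is no separate result. KO2 was the lowest for Sycp2 (0.968). KO3 was the only KO oocyte with reads of Hist1h2al (1.0) and Rps3a3 (1.0), with 1 and 2 reads. With the other KO oocytes at 0, the gap of these genes is 1.0 whatever the value in KO3, so these flags carry no weight. Hormad1 was at 0.377 FPKM in KO1 and at 0.978 to 1.08 in the other KO oocytes.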

How the results depend on the processing

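The Hormad1 difference of -3.64 was -4.61 with a pseudocount of 0.1 and -2.20 with one of 5, and -3.70 to -3.50 when 1 oocyte was left out. A pseudocount of 5 left 1 described gene over 2-fold apart, and 1 prophase gene over 2-fold higher and 1 lower. A pseudocount of 0.1 gave 6 prophase genes over 2-fold higher. Median-ratio scaling gave 6 lower prophase genes and a prophase median of -0.12, and a filter at FPKM 10 gave 1 higher gene and a median of -0.10. Leaving out 1 oocyte gave 2 to 4 lower prophase genes. The median of all genes, 0.18, was -0.01 with median-ratio scaling and 0.00 with quantile normalization, so small differences depend on the scale. No difference over 2-fold turned its sign under any alternative tried, while the small differences of Skp1, Mad2l1, Zcwpw1, Swi5 and Ythdc2 did with another scaling. The cause of these shifts was not tested. No paired analysis was possible because the results come from no test, and the numbers shared by WT and KO oocytes are not said to mark a common animal or day.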

Other observations

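Hormad1 varied little between the WT oocytes. Its coefficient of variation (SD over mean) was 1.51% across WT1, WT2 and WT4, below the 3.06% that counting alone would give at its mean of 1066 reads. Of 1631 genes with a WT mean within 2-fold of its own, 0.429% varied as little, and their median was 20%. In the KO oocytes it was 37.7%. Sycp3 varied by 36.5% in WT and 36.6% in KO, and Sycp2 by 32.9% and 8.02%. Hormad1 was chosen by its values in these same oocytes, so setting its spread beside that of other genes is a description only. With 3 oocytes, a small spread has little weight.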
